A study of Mus musculus with 14 samples.

Results

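The interaction of preterm birth and streptozotocin was examined in kidney RNA of female CD-1 mice, an outbred strain. Streptozotocin (STZ) is a toxin of pancreatic beta cells that is used to make mice diabetic. The interaction asks, gene by gene, whether the difference between STZ-treated and untreated kidneys was the same in mice born preterm as in mice born at term. It was computed as the log2 STZ effect in preterm mice minus the log2 STZ effect in term mice, and needs all 4 groups and all 14 libraries of the series. Of the 56980 gene IDs in the counts, the 22339 with a total above 10 were tested.

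The groups were term non-diabetic (T-ND, 4 mice), term diabetic (T-D, 4 mice), preterm non-diabetic (PT-ND, 3 mice) and preterm diabetic (PT-D, 3 mice). All mice were females of wild-type genotype, and whole kidneys were taken at 18 weeks of age. T-ND and PT-ND mice had no treatment, and T-D and PT-D mice had received STZ. Preterm pups were delivered by Caesarean section and raised by foster mothers that drank acepromazine for a time, whereas term pups were born naturally and stayed with their dams, and these conditions cannot be told apart from preterm birth itself. Some preterm diabetic females needed a second course of STZ and no term diabetic female did, and which libraries these were is not given. All mice received cationic ferritin, an imaging tracer that carries iron, before the kidneys were taken.

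In diabetic kidney disease, high glucose loads the proximal tubule, injures the glomerular and peritubular endothelium, and can activate inflammatory signalling. NF-kB is a family of transcription factors that switches on chemokines and cytokines, and among its targets are its own inhibitors, which end the response. Preterm birth can cut short the formation of nephrons, and fewer nephrons may then carry the filtration load of the adult kidney. The paper found no difference in glomerular number between its groups of females.

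The libraries held between 16697246 and 28673176 counts. T-D replicate 4 stood apart by the fewest genes with a count, 19589, and the lowest TMM factor, 0.839. The level of Hmox1, the heme oxygenase that breaks down heme and releases iron, split the T-ND group, with 79420 and 72243 normalized counts in replicates 1 and 2 and 1539 and 2674 in replicates 3 and 4. The first pair carries a suffix in the library name that the other pair lacks. The suffix is borne by 5 libraries, with at least 1 in each group, and its meaning is not given. Proximal tubule, loop, collecting duct, podocyte and endothelial markers were present in every library.

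Of the 22339 genes tested, 993 (4.45%) were differentially expressed genes (DEGs) of the interaction, called where the adjusted p was under 0.05 and the log2 interaction beyond 1 in size. The STZ effect was higher in preterm than in term mice for 443 of them (1.98% of genes tested) and lower for 550 (2.46%). Of the DEGs, 926 were protein coding. The number rested on single libraries. It was 76 without PT-D replicate 3, 111 without PT-ND replicate 3, 285 without PT-ND replicate 2, 323 without PT-D replicate 2, 438 without T-ND replicate 4, 439 without T-D replicate 3, 527 without T-ND replicate 1, 555 without T-ND replicate 3 and 631 without T-D replicate 4. Of the 993 DEGs, 67 were called in each of the 14 fits with a library left out. In the 9 libraries without the name suffix alone, 10 genes were DEGs, and the 993 genes had the same sign there without exception. These 9 are part of the libraries that gave the 993, so the shared sign is no independent support.

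The STZ effects behind the interaction were read from the same fit, in which 58 genes (0.26%) were DEGs of STZ in term mice and 877 (3.93%) of STZ in preterm mice. The count for term mice lay between 8 (without T-ND replicate 1) and 344 (without T-ND replicate 3), and that for preterm mice between 240 (without PT-ND replicate 3) and 1112 (without T-D replicate 4). These comparisons use the same libraries as the interaction, so their values only describe it. Of the 993 DEGs, 27 were DEGs of STZ in term mice, 347 of STZ in preterm mice and 5 of both (2 higher and 3 lower in the interaction), and 542 were DEGs of none of the 4 comparisons of group pairs. By the signs of the estimates, of the 443 higher DEGs, 423 had a negative STZ effect in term mice and a positive effect in preterm mice. Of the 550 lower DEGs, 514 had a positive STZ effect in term mice and a negative effect in preterm mice. The genes were picked for a large difference between these effects, which favours opposite signs, and most of the single effects did not pass the test. The median STZ effect of the higher DEGs was -0.47 in term and 0.97 in preterm mice, and that of the lower DEGs was 0.42 in term and -0.89 in preterm mice.

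Read the other way, preterm birth gave 22 DEGs (0.0985%) without STZ and 396 (1.77%) with it. These counts lay between 4 (without T-ND replicate 2) and 46 (without T-ND replicate 3), and between 23 (without PT-D replicate 3) and 581 (without T-D replicate 1). Of the 993 interaction DEGs, 19 were DEGs of preterm birth without STZ and 226 with it. The estimate of the STZ effect was larger in size in preterm than in term mice for 831 of the 993, without a test of that difference in size.

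**Figure D1:**
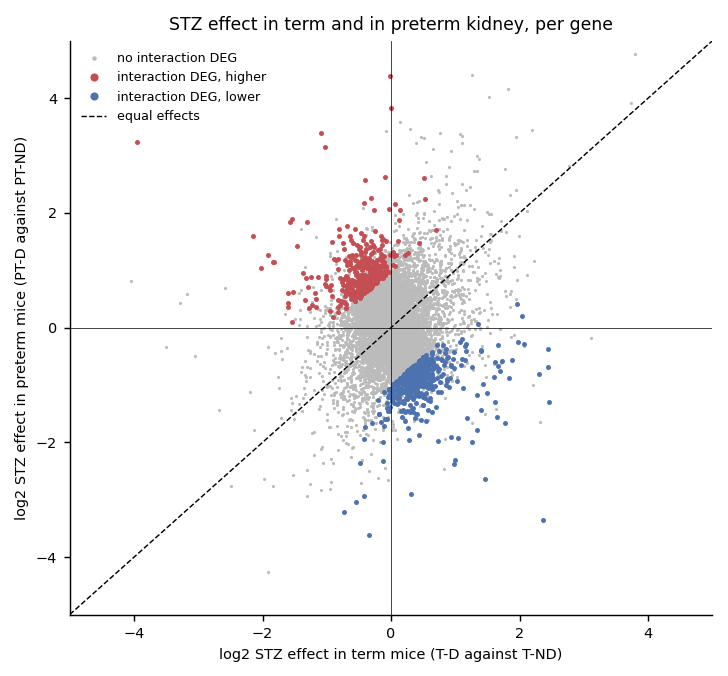
Log2 STZ effect in term mice (x axis) and in preterm mice (y axis) for each gene whose mean was 50 normalized counts or more, with the interaction DEGs in red (higher) and blue (lower), the dashed line where both effects are equal, and genes beyond the axes left out. Counted over all DEGs, also those not plotted, 423 of 443 higher and 514 of 550 lower had effects of opposite sign, as in the upper left and the lower right. A mean of 50 or more was reached by 371 of the higher and 516 of the lower DEGs.

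Among genes higher in the interaction, the smallest p was that of Lama3 (chromosome 18, 12466876 to 12717747), an alpha chain of the laminins of epithelial basement membranes. Its normalized counts were 321, 295, 733 and 518 in T-ND, 380, 558, 512 and 413 in T-D, 46.9, 43.0 and 32.3 in PT-ND and 576, 474 and 685 in PT-D. PT-ND alone was low, and the other groups overlapped. The log2 interaction was 3.82 (SE 0.41, adjusted p = 0.00090), with an STZ effect of -0.00 in term and 3.82 in preterm mice. In bulk tissue, fewer cells of a type and less RNA per cell cannot be told apart, for this gene and for those that follow.

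Exoc3l2 (chromosome 7, 19196973 to 19231787), an exocyst-like gene of endothelial cells, had STZ effects of opposite sign that both passed the test. It had 404, 554, 358 and 502 normalized counts in T-ND and 785, 821 and 609 in PT-D, but 177, 59.7, 226 and 162 in T-D and 257, 191 and 145 in PT-ND. The T-ND and PT-D libraries were all above those of T-D and PT-ND, and the interaction was 3.43 (SE 0.45, adjusted p = 0.0047). STZ effects were -1.53 (adjusted p = 0.040) in term and 1.90 (adjusted p = 0.0075) in preterm mice.

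Fgd5, Arhgef15 and Hdac7 were also among the higher genes with the smallest p, and none of them is on the endothelial list described further on. Fgd5, a guanine nucleotide exchange factor of endothelial cells, had 175, 246, 170 and 139 normalized counts in T-ND, 144, 123, 91.4 and 109 in T-D, 166, 174 and 99.2 in PT-ND and 436, 522 and 376 in PT-D. PT-D was above the other groups, whose libraries overlapped, with an interaction of 2.24 (SE 0.35, adjusted p = 0.0079). Arhgef15, another endothelial exchange factor, had 202, 175, 164 and 199 in T-ND, 136, 129, 104 and 52.8 in T-D, 108, 90.5 and 85.4 in PT-ND and 296, 272 and 289 in PT-D. Here PT-D was highest, T-ND next and T-D and PT-ND lowest, with an interaction of 2.40 (SE 0.36, adjusted p = 0.0072). Hdac7, a class IIa histone deacetylase with a known part in vascular integrity, had 347, 404, 520 and 550 in T-ND, 307, 468, 267 and 314 in T-D, 274, 278 and 231 in PT-ND and 907, 704 and 767 in PT-D. Its interaction was 2.03 (SE 0.29, adjusted p = 0.0054), and PT-D did not overlap with any other group.

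Fzd7, a receptor for Wnt ligands, had 358, 312, 403 and 361 normalized counts in T-ND, 209, 174, 261 and 184 in T-D, 215, 214 and 223 in PT-ND and 415, 362 and 405 in PT-D. T-ND and PT-D were again together above T-D and PT-ND, with an interaction of 1.65 (SE 0.23, adjusted p = 0.0054). Hsf2, a heat shock transcription factor, had the same order with 276 to 327 in T-ND, 154 to 203 in T-D, 143 to 162 in PT-ND and 240 to 276 in PT-D, and an interaction of 1.45 (SE 0.22, adjusted p = 0.0079). Trim12c, a member of the TRIM family of antiviral factors in mice, had 282 to 597 normalized counts in T-ND, 272 to 514 in T-D, 163 to 212 in PT-ND and 905 to 1357 in PT-D, which stood above the rest. Its interaction was 2.73 (SE 0.39, adjusted p = 0.0054).

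The other higher genes named by p had smaller values. They were B3galnt2, a glycosyltransferase that builds the glycans of dystroglycan, with an interaction of 1.55 (SE 0.22), Fhod1, a formin that assembles actin, with 1.85 (SE 0.29), Atf7ip, a cofactor of histone methylation, with 1.39 (SE 0.20), and Rb1cc1, a subunit of the complex that starts autophagy, with 1.26 (SE 0.19). Their adjusted p-values lay between 0.0054 and 0.0079. All 3 PT-D libraries were above all PT-ND libraries for each of these 4 genes.

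**Figure D2:**
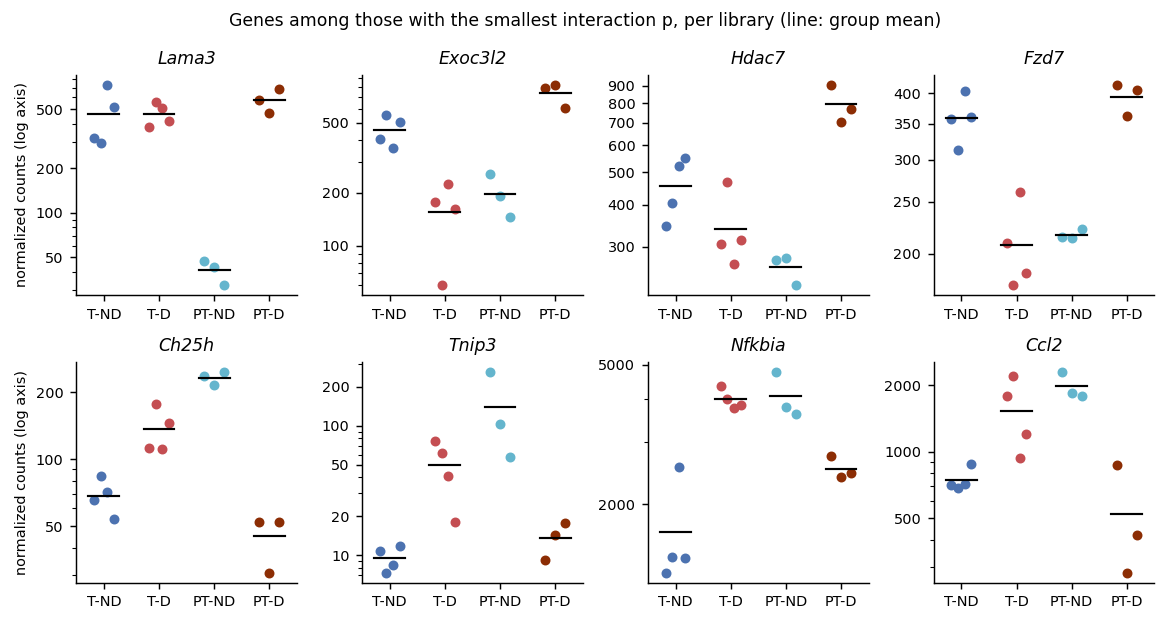
Normalized counts (log axis) of 8 of the genes with the smallest interaction p, 1 panel a gene, 1 point a library and a line at each group mean. For Exoc3l2 and Fzd7 the T-ND and PT-D libraries lay above the T-D and PT-ND libraries, for Ch25h and Tnip3 below them, and for Lama3 the PT-ND libraries alone, at 32.3 to 46.9, were low.

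Among genes lower in the interaction, Ch25h (chromosome 19, 34451178 to 34452564) had the smallest p. It encodes an enzyme that hydroxylates cholesterol to an oxysterol with antiviral and immune functions. Its normalized counts were 65.4, 84.0, 71.2 and 53.7 in T-ND, 112, 177, 111 and 145 in T-D, 237, 215 and 247 in PT-ND and 52.0, 30.8 and 52.0 in PT-D. PT-ND was highest, T-D next, and T-ND and PT-D lowest, with no PT-D library above a T-ND library. The interaction was -3.36 (SE 0.36, adjusted p = 0.00090), with an STZ effect of 0.99 (adjusted p = 0.082) in term and -2.37 (adjusted p = 0.00070) in preterm mice.

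Tnip3 (chromosome 6, 65502295 to 65611024), a binding partner of A20 that restrains NF-kB signalling, was low in T-ND and PT-D and higher in the other groups. It had 10.7, 7.31, 8.38 and 11.8 normalized counts in T-ND, 77.0, 62.1, 41.2 and 18.0 in T-D, 262, 104 and 57.7 in PT-ND and 9.12, 14.3 and 17.6 in PT-D. The interaction was -5.72 (SE 0.77, adjusted p = 0.0047). Prr7, a membrane adaptor studied in T cells and synapses, had the same order, with 19.2 to 39.8 in T-ND, 59.4 to 110 in T-D, 115 to 144 in PT-ND and 33.7 to 51.2 in PT-D, and an interaction of -3.21 (SE 0.43, adjusted p = 0.0047).

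Cebpd and Jdp2, both transcription factors, were among the lower genes. Cebpd, which is induced by cytokines, had 501, 936, 1395 and 734 normalized counts in T-ND, 2303, 3165, 1834 and 2690 in T-D, 2882, 1712 and 2626 in PT-ND and 1115, 1097 and 1048 in PT-D, with an interaction of -2.63 (SE 0.40, adjusted p = 0.0072). The T-D and PT-ND libraries lay above all those of T-ND and PT-D. Jdp2, a repressor that pairs with AP-1 proteins, was highest in PT-ND (380 to 517), and had 200 to 253 in T-ND, 253 to 324 in T-D and 146 to 192 in PT-D, with an interaction of -1.76 (SE 0.24, adjusted p = 0.0054).

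Crym encodes crystallin mu, a binding protein of thyroid hormone in the cytosol. It had 442, 448, 1002 and 972 normalized counts in T-ND, 1162, 2033, 1597 and 1702 in T-D, 1085, 1172 and 1766 in PT-ND and 459, 484 and 411 in PT-D. The T-ND libraries with the name suffix were at the PT-D level and those without it lay just under the lowest PT-ND library. The interaction was -2.75 (SE 0.41, adjusted p = 0.0072), and -2.52 (adjusted p = 0.024) in the libraries without the suffix alone. Fgfrl1, a decoy receptor for fibroblast growth factors that kidney development requires, had 512 to 647 in T-ND, 654 to 722 in T-D, 808 to 988 in PT-ND and 398 to 487 in PT-D, with an interaction of -1.28 (SE 0.18, adjusted p = 0.0055).

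Catspere2, a gene of the sperm calcium channel family, was high only in PT-ND, with 252, 280 and 216 normalized counts against 19.9 to 44.8 in T-ND, 26.05 to 61.7 in T-D and 24.1 to 51.1 in PT-D. Its interaction was -3.21 (SE 0.52, adjusted p = 0.0093). Ube2s, a ubiquitin-conjugating enzyme of mitosis, had an interaction of -1.64 (SE 0.26, adjusted p = 0.0086) and Rsph3b, a radial spoke gene, -1.46 (SE 0.24, adjusted p = 0.0093).

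These 24 protein-coding genes, 12 in each direction, were DEGs in each of the 14 fits with a library left out. They were picked by p in the same 14 libraries, so refits on parts of these are no independent support. With a correction for transcript length and GC content 22 of them remained DEGs, the exceptions being Atf7ip at 0.93 (adjusted p = 0.026) and Rb1cc1 at 0.68 (adjusted p = 0.069). In the libraries without the suffix alone, 3 of the 24 were DEGs (Lama3, Ch25h and Crym), and the 24 kept their sign there, with no value closer to 0 than 1.27.

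The list of NF-kB, chemokine and SOCS genes had the lowest median of the lists described here, at -1.33 over its 30 members, against 0.07 over all genes tested. Of the 30, 10 were DEGs lower in the interaction and none was higher, beside 2.46% lower DEGs over all genes, and 25 of the 30 lay below 0. The median STZ effect of the list was 1.24 in term and 0.01 in preterm mice, and the median preterm effect was 1.07 without STZ and -0.31 with it. With a library left out the median lay between -1.87 and -1.05, with the length and GC correction it was -1.12, and 5 members were then DEGs, again lower.

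Of the 10 DEGs of the list, Nfkbia, Tnfaip3 and Nfkbid are feedback inhibitors of NF-kB. Nfkbia (chromosome 12, 55535332 to 55539432) encodes the inhibitor that holds NF-kB in the cytosol. Its normalized counts were 1276, 1415, 2555 and 1402 in T-ND, 4344, 3988, 3761 and 3841 in T-D, 4765, 3788 and 3626 in PT-ND and 2747, 2386 and 2450 in PT-D. The T-D and PT-ND libraries overlapped and lay above those of PT-D, and T-ND was lowest but for replicate 3. The interaction was -1.94 (SE 0.29, adjusted p = 0.0072), with an STZ effect of 1.26 (adjusted p = 0.012) in term and -0.68 (adjusted p = 0.059) in preterm mice. Tnfaip3, which encodes the ubiquitin-editing enzyme A20, had 270 to 736 in T-ND, 820 to 1637 in T-D, 950 to 2440 in PT-ND and 747 to 982 in PT-D, with an interaction of -2.46 (SE 0.50, adjusted p = 0.022). Nfkbid, another inhibitor of the family, had an interaction of -1.75 (SE 0.45, adjusted p = 0.038). Leaving out 1 library ended the call for Tnfaip3 (adjusted p = 0.072 without PT-D replicate 3) and Nfkbid (adjusted p = 0.098 without PT-D replicate 3). Correcting for length and GC content ended the call for Nfkbid (-1.46, adjusted p = 0.095).

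Of the cytokines and chemokines of the list, Ccl2, Tnf, Il6, Cxcl1 and Cxcl2 were lower DEGs, and the others did not pass the test, from Ccl7 at -1.62 (adjusted p = 0.12), Cxcl10 at -1.49 (adjusted p = 0.25) and Cxcl9 at -1.26 (adjusted p = 0.40) to Ccl5 at 0.06 and Ccl28 at 0.71. Ccl2, the main attractant of monocytes, had 709, 686, 713 and 877 normalized counts in T-ND, 1782, 2190, 937 and 1207 in T-D, 2297, 1850 and 1795 in PT-ND and 874, 284 and 419 in PT-D, with an interaction of -2.95 (SE 0.46, adjusted p = 0.0079). No T-ND library reached the lowest T-D or PT-ND library, and 2 of the 3 PT-D libraries were below all others. Tnf, which encodes tumour necrosis factor, had 33.3, 18.3, 46.1 and 37.6 in T-ND, 70.2, 60.9, 40.4 and 88.8 in T-D, 114, 136 and 84.2 in PT-ND and 33.7, 34.6 and 20.8 in PT-D, and its interaction was -2.84 (SE 0.51, adjusted p = 0.015). The call was lost in some fits with a library left out for Tnf (adjusted p = 0.054 without PT-D replicate 3).

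The other DEGs of the list were Il6 at -4.42 (SE 1.07, adjusted p = 0.033), the neutrophil chemokines Cxcl2 at -3.76 (SE 0.98, adjusted p = 0.038) and Cxcl1 at -3.14 (SE 0.81, adjusted p = 0.037), and the suppressors of cytokine signalling Socs3 at -2.44 (SE 0.56, adjusted p = 0.028) and Socs1 at -2.31 (SE 0.58, adjusted p = 0.035). Il6 had 4.75 to 17.8 normalized counts in T-ND, 18.3 to 123 in T-D, 24.9 to 75.1 in PT-ND and 2.26 to 27.4 in PT-D, with the PT-D libraries overlapping those of each other group. Of the 20 members that were no DEGs, Icam1, an adhesion molecule of activated endothelium, was at -1.69 (SE 0.53, adjusted p = 0.064), Relb at -1.37 (SE 0.52, adjusted p = 0.12), and Ccl20 at -0.08 (SE 1.01, adjusted p = 0.98) with STZ effects of 4.30 in term and 4.22 in preterm mice. These members, other than Nfkbia, Ccl2, Tnf and Tnfaip3, were chosen after their values were seen. Not all 14 fits with a library left out kept Socs3 (adjusted p = 0.080 without PT-D replicate 3), Il6 (adjusted p = 0.092 without PT-D replicate 3), Socs1 (adjusted p = 0.089 without PT-ND replicate 3), Cxcl1 (adjusted p = 0.11 without PT-D replicate 3) and Cxcl2 (adjusted p = 0.11 without PT-D replicate 3). The length and GC correction removed the call of Il6 (-4.19, adjusted p = 0.062), Socs1 (-2.38, adjusted p = 0.052), Cxcl1 (-2.62, adjusted p = 0.13) and Cxcl2 (-3.44, adjusted p = 0.098).

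The summed level of the macrophage list was 3891 to 6185 in T-ND, 5429 to 13059 in T-D, 6036 to 6875 in PT-ND and 6220 to 11070 in PT-D, so that its ranges overlapped. Its median interaction was -0.33 (-0.11 without PT-D replicate 1, -0.58 without T-D replicate 3), and none of its 21 members was a lower DEG. Its part in the NF-kB result was not tested.

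**Figure D3:**
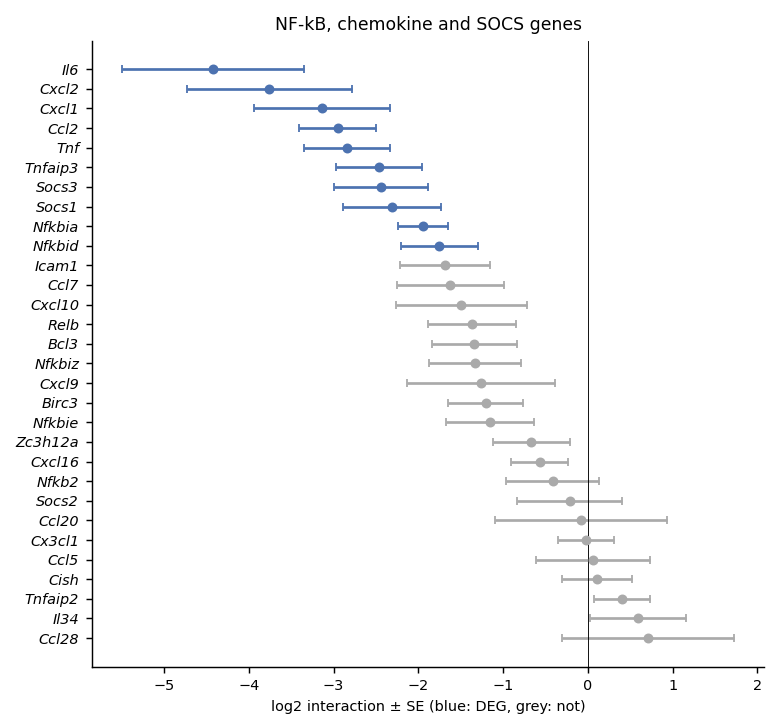
Log2 interaction with its standard error for each of the 30 genes of the NF-kB, chemokine and SOCS list, in order, with DEGs in blue. The 10 DEGs ran from -4.42 for Il6 to -1.75 for Nfkbid, and the 5 members above 0 were no DEGs.

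The promoters of members that moved together are shown because the kB consensus, the DNA motif that NF-kB binds, was found in some of them. The windows are the 250 bases upstream of the start of the canonical transcript in the GRCm39 genome, printed 5′ to 3′ on the strand of the gene, with each match to the consensus (10 bases, either strand) in capitals. In Cxcl1 and Cxcl2, neighbouring genes of the same family, matches on both strands overlap and are printed as 1 block. Ccl2 is shown as a DEG with no match in its window.
Nfkbia, chr12:55539433-55539682, minus strand: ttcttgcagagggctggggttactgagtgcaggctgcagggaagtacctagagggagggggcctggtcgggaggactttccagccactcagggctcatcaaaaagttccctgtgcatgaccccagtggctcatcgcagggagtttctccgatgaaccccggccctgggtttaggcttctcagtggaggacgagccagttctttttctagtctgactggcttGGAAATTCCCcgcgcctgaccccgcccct
Il6, chr5:30217862-30218111, plus strand: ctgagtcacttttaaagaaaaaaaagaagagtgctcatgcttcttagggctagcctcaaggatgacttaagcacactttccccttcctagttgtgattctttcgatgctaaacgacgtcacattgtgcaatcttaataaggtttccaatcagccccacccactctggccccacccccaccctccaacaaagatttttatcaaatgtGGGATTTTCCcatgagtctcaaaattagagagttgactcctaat
Cxcl1, chr5:91038844-91039093, plus strand: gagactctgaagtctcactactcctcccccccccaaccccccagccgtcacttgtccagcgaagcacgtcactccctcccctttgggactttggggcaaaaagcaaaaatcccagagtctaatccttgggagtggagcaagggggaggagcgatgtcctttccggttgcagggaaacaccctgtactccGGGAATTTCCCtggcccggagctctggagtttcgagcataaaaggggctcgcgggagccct
Cxcl2, chr5:91051480-91051729, plus strand: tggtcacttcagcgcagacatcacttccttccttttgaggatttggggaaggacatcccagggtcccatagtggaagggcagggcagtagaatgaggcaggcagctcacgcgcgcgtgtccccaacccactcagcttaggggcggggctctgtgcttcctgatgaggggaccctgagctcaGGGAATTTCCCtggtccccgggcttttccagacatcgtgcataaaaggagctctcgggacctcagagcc
Ccl2, chr11:81926147-81926396, plus strand: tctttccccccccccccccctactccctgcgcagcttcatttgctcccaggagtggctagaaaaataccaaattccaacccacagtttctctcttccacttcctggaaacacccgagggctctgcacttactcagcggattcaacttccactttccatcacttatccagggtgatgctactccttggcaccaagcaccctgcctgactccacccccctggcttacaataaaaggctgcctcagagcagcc

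The match ends 19 bases before the start in Nfkbia and 34 in Il6. Of the 10 DEGs of the list, 5 held a match, among them Tnfaip3, and of its 20 other members 6 did. Over the promoters of all 16165 protein-coding genes tested, 4.63% held a match, beside 6.24% for the lower and 5.08% for the higher interaction DEGs. A match is a description of the letters and was not set against binding data.

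Endothelial markers lay on the other side. Of 22 members, 4 were higher DEGs, beside 1.98% higher DEGs over all genes, and none was lower. Of the 22, 18 lay above 0, beside 11850 of the 22339 genes tested. The median was 0.76 (0.80 with the length and GC correction, and 0.58 to 0.91 with a library left out). Sox17, a transcription factor of arterial endothelium, had 171, 188, 110 and 164 normalized counts in T-ND, 69.1, 37.8, 59.4 and 52.8 in T-D, 130, 87.1 and 83.1 in PT-ND and 194, 143 and 128 in PT-D. T-D was lower than any other group, and the interaction was 2.15 (SE 0.39, adjusted p = 0.015), with an STZ effect of -1.53 (adjusted p = 0.025) in term mice and 0.63 (adjusted p = 0.17) in preterm mice. Egfl7, a protein that endothelial cells secrete, had 485, 448, 486 and 518 in T-ND, 194, 372, 376 and 310 in T-D, 250, 297 and 284 in PT-ND and 1287, 586 and 532 in PT-D, with an interaction of 2.16 (SE 0.39, adjusted p = 0.015).

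Receptors of vascular endothelial growth factors were among these members. Flt4, the receptor of lymphatic and fenestrated vessels, had 222, 234, 340 and 236 normalized counts in T-ND, 239, 257, 268 and 102 in T-D, 238, 206 and 174 in PT-ND and 778, 496 and 715 in PT-D, and PT-D stood above the overlapping other groups. Its interaction was 1.94 (SE 0.39, adjusted p = 0.022). Kdr, the main signalling receptor, had 738 to 1401 in T-ND, 320 to 934 in T-D, 440 to 985 in PT-ND and 1205 to 1720 in PT-D, with an interaction of 1.83 (SE 0.47, adjusted p = 0.038). Of the more general markers, Pecam1 was at 0.63 (SE 0.29, adjusted p = 0.19), Emcn at -0.11 (SE 0.26, adjusted p = 0.85) and Tie1 at -0.01 (SE 0.36, adjusted p = 1.00), which were named after their values were seen. The summed level of the list was 14618 to 15678 in T-ND, 8339 to 15677 in T-D, 11903 to 18811 in PT-ND and 18563 to 24451 in PT-D. Leaving out 1 library ended the call for Kdr (adjusted p = 0.11 without PT-ND replicate 3) and Flt4 (adjusted p = 0.071 without PT-D replicate 3). After the length and GC correction the thresholds were missed by Kdr (1.53, adjusted p = 0.063).

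Notch signalling passes between neighbouring cells by ligands and receptors in their membranes. The list had a median of 1.15 over 20 members, with 4 higher DEGs, beside 1.98% higher DEGs over all genes, and none lower. The ligands Jag2 and Jag1 had interactions of 2.44 (SE 0.52, adjusted p = 0.024) and 1.23 (SE 0.27, adjusted p = 0.025). Jag2 had 118, 119, 90.1 and 107 normalized counts in T-ND, 111, 52.4, 82.3 and 23.2 in T-D, 63.6, 43.0 and 43.8 in PT-ND and 177, 160 and 175 in PT-D, with PT-D above all other libraries. The glycosyltransferase Lfng, which tunes the receptors to their ligands, had 2.01 (SE 0.49, adjusted p = 0.033) and the coactivator Maml1 had 1.19 (SE 0.26, adjusted p = 0.026). Receptor values were 1.16 (SE 0.48) for Notch1, 1.16 (SE 0.55) for Notch3 and 1.51 (SE 0.50) for Notch4, with adjusted p-values of 0.15, 0.21 and 0.075. The target Hes1, named after its values were seen like the receptors, was at -0.40 (SE 0.20, adjusted p = 0.24). The call was lost in some fits with a library left out for Jag2 (adjusted p = 0.071 without PT-D replicate 3), Jag1 (adjusted p = 0.074 without PT-D replicate 3), Maml1 (adjusted p = 0.080 without PT-D replicate 3) and Lfng (adjusted p = 0.095 without PT-D replicate 3). Correcting for length and GC content ended the call for Jag1 (0.90, adjusted p = 0.057) and Maml1 (0.89, adjusted p = 0.045).

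The neutrophil list had a median of 1.04 over 20 members (0.29 without PT-D replicate 1, 0.27 in the libraries without the suffix). Of them, 2 were higher DEGs, beside 1.98% higher DEGs over all genes, and 7 lay below 0. Mmp9, a gelatinase of neutrophil granules, had 17.8, 10.96, 33.5 and 19.3 normalized counts in T-ND, 20.4, 14.6, 10.7 and 12.9 in T-D, 5.22, 13.6 and 11.5 in PT-ND and 150, 67.0 and 66.4 in PT-D. All PT-D libraries were above all others, and the interaction was 3.70 (SE 0.67, adjusted p = 0.016). Csf3r, the receptor of the growth factor of granulocytes, had 35.6 to 111 in T-ND, 45.0 to 93.8 in T-D, 43.0 to 80.8 in PT-ND and 140 to 422 in PT-D, with an interaction of 2.32 (SE 0.65, adjusted p = 0.047). The granule and calprotectin genes were less clear, with S100a8 at 1.17 (SE 0.82, adjusted p = 0.40) and Ly6g, which defines mouse neutrophils, at means of 2.03, 3.48, 2.66 and 6.64 normalized counts in T-ND, T-D, PT-ND and PT-D, respectively. Hdc, the histidine decarboxylase also found in mast cells, was at -2.16 and made up most of the summed level of the list in PT-ND. With Hdc, sums were 1665 to 3933 in T-ND, 1486 to 3661 in T-D, 9815 to 14804.5 in PT-ND and 3078 to 6711 in PT-D. Without it, the sum was 680 to 1454 in T-ND, 658 to 2058 in T-D, 673 to 1883 in PT-ND and 2100 to 6164 in PT-D. Hdc, S100a8 and Ly6g were named after their values were seen. Not all 14 fits with a library left out kept Csf3r (adjusted p = 0.11 without PT-D replicate 1). Corrected for length and GC content, Csf3r (2.27, adjusted p = 0.073) did not pass.

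Cx3cr1, the fractalkine receptor of resident macrophages, was the only DEG of the macrophage list, in which 7 members lay above 0 and 14 below. It had 41.6, 64.8, 8.38 and 23.6 normalized counts in T-ND, 3.40, 10.97, 3.05 and 2.57 in T-D, 15.6, 12.4 and 4.62 in PT-ND and 27.4, 51.9 and 50.4 in PT-D, and its interaction was 4.77 (SE 0.94, adjusted p = 0.020). The lymphocyte list had a median of 0.01, with -0.997 without T-ND replicate 2 and 0.995 without PT-ND replicate 1. It had no DEG among 22 members, with the smallest p for Cd3d at -1.84 (SE 0.85, adjusted p = 0.19). Leaving out 1 library ended the call for Cx3cr1 (adjusted p = 0.063 without PT-D replicate 3).

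All 21 members of the acute phase and complement list lay above 0, beside 11850 of the 22339 genes tested. The median was 1.38 (0.66 without T-ND replicate 3), and 1 member was a DEG, beside 4.45% of all genes. This was Itih4, an acute phase protein of plasma, at 5.94 to 22.6 normalized counts in T-ND, 0.762 to 23.8 in T-D, 3.39 to 9.39 in PT-ND and 55.2 to 234 in PT-D, with an interaction of 4.44 (SE 1.16, adjusted p = 0.038). The median STZ effect of the list was 0.24 in term and 1.99 in preterm mice, and its summed level was 7610 to 29245 in T-ND, 12022 to 38981 in T-D, 8277 to 14612 in PT-ND and 22777 to 53362 in PT-D, so that PT-D overlapped with T-ND and T-D. Of 35 interferon-stimulated genes, 31 lay above 0 with a median of 0.69, and Ifi44 was the DEG at 1.91 (SE 0.50, adjusted p = 0.038). The median of that list was -0.08 without T-ND replicate 3. The antigen presentation list had a median of -0.43, which turned to 0.08 without T-D replicate 4 and to 0.26 with the length and GC correction, and no DEG among 15, with the smallest p for Cd86 at -1.87 (SE 0.63, adjusted p = 0.081). The call was lost in some fits with a library left out for Itih4 (adjusted p = 0.10 without PT-ND replicate 3) and Ifi44 (adjusted p = 0.087 without PT-ND replicate 2). After the length and GC correction the thresholds were missed by Itih4 (4.47, adjusted p = 0.058) and Ifi44 (1.79, adjusted p = 0.065).

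All 11 laminin chains lay above 0, with a median of 0.82 (0.56 with the length and GC correction). Lama3 was the DEG, and Lamb1, a chain of many laminins, was at 0.98 (SE 0.22, adjusted p = 0.028), below the log2 threshold. The matrix and fibrosis list had a median of 0.34 (0.06 without PT-D replicate 2, 0.64 without PT-ND replicate 1) and no DEG among 30, and Ccn2, a connective tissue growth factor, was at 1.33 (SE 0.41, adjusted p = 0.061). Among 12 smooth muscle and pericyte genes, Pdgfrb, the receptor that marks pericytes, was the DEG at 1.51 (SE 0.43, adjusted p = 0.049). Podocyte genes had a median of 0.50 (0.27 without T-D replicate 4 and 0.27 with the length and GC correction) and no DEG among 17. Cd2ap, an adaptor of the slit diaphragm, was at 0.94 (SE 0.24, adjusted p = 0.036). Not all 14 fits with a library left out kept Pdgfrb (adjusted p = 0.13 without PT-ND replicate 3). Correcting for length and GC content ended the call for Pdgfrb (1.26, adjusted p = 0.070).

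**Figure D4:**
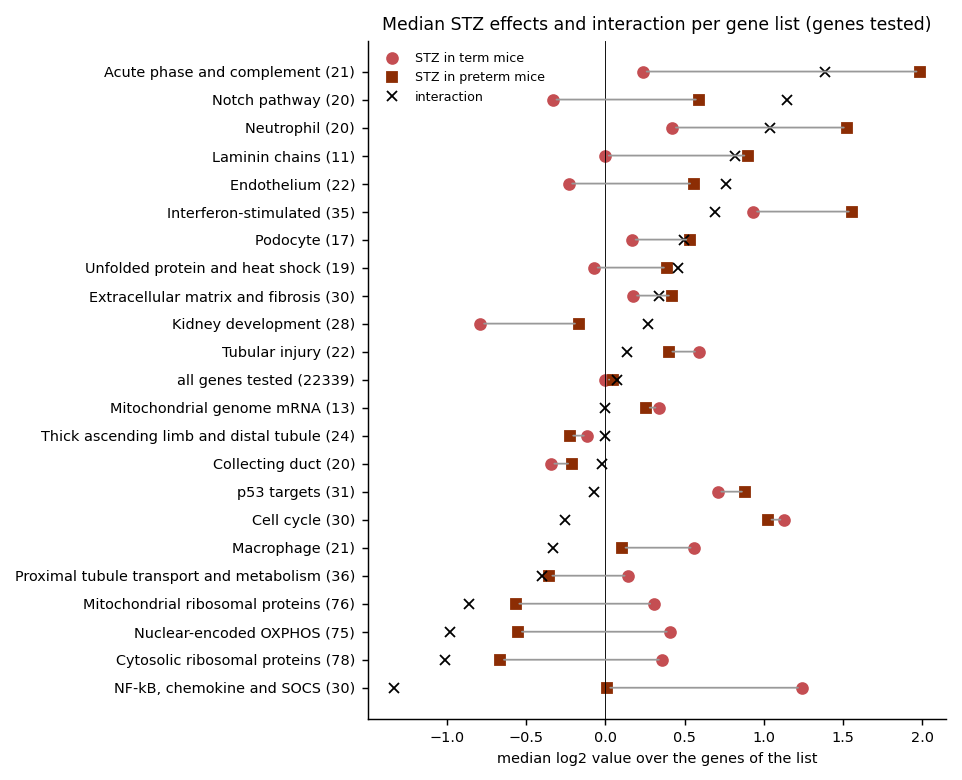
Median log2 STZ effect in term mice (circles) and in preterm mice (squares) and median log2 interaction (crosses) over the genes of each list, with the number tested in brackets. The NF-kB list lay lowest, at -1.33, and the acute phase and complement list highest, at 1.38, while p53 targets and cell cycle genes had positive STZ effects of similar size in both birth groups.

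Of the 38 lists, those of the nuclear-encoded subunits of oxidative phosphorylation (OXPHOS) and of mitochondrial and cytosolic ribosomal proteins, which are also the longest, held the most lower DEGs by number, and the NF-kB list by share. Of 75 nuclear-encoded OXPHOS subunits, 21 were lower DEGs, beside 2.46% lower DEGs over all genes, and none was higher. Of the 75, 2 lay above 0, and the median was -0.98. Ndufb8, a subunit of complex I, had 2777, 2507, 2951 and 3029 normalized counts in T-ND, 2800, 3507, 3092 and 4711 in T-D, 2127, 3051 and 4038 in PT-ND and 1376, 1369 and 1599 in PT-D. PT-D was below all other libraries, which overlapped, and the interaction was -1.41 (SE 0.29, adjusted p = 0.022). Ndufv3 (-1.15, SE 0.26), Ndufs7 (-1.17, SE 0.28) and Atp5mg of the ATP synthase (-1.49, SE 0.35) had adjusted p-values between 0.029 and 0.033. Leaving out 1 library ended the call for Ndufb8 (adjusted p = 0.063 without PT-ND replicate 3), Ndufv3 (adjusted p = 0.087 without PT-D replicate 3), Atp5mg (adjusted p = 0.089 without PT-ND replicate 3) and Ndufs7 (adjusted p = 0.096 without PT-D replicate 3). Corrected for length and GC content, Ndufb8 (-0.57, adjusted p = 0.13), Ndufv3 (-0.66, adjusted p = 0.065), Atp5mg (-0.68, adjusted p = 0.24) and Ndufs7 (-0.40, adjusted p = 0.22) did not pass.

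Of 78 cytosolic ribosomal protein genes, 18 were lower DEGs, beside 2.46% lower DEGs over all genes, and the median was -1.01. Rpl35a had 1463, 1782, 2261 and 2396 normalized counts in T-ND, 2599, 2989, 1290 and 2133 in T-D, 2308, 3401 and 1983 in PT-ND and 1050, 964 and 825 in PT-D, with an interaction of -1.63 (SE 0.36, adjusted p = 0.027). Rpl17, Rpl38 and Rps28 were at -1.30, -1.31 and -1.22. Of 76 mitochondrial ribosomal protein genes, 20 were lower DEGs, beside the same 2.46% over all genes, and none lay above 0. Their median was -0.86, with Mrps12 at -1.43 (SE 0.29, adjusted p = 0.021) and Mrps16 at -1.37 (SE 0.30, adjusted p = 0.025). Ribosomal protein genes have many processed pseudogenes, to which reads can also align. The 13 mRNAs of the mitochondrial genome had no DEG and a median of -0.00 (0.42 with the length and GC correction, -0.37 without PT-D replicate 1), with the smallest p for mt-Nd1 at -0.65 (SE 0.30, adjusted p = 0.19). The call was lost in some fits with a library left out for Rpl35a (adjusted p = 0.082 without PT-D replicate 3), Rpl17 (adjusted p = 0.081 without PT-D replicate 3), Rpl38 (adjusted p = 0.092 without PT-ND replicate 3), Rps28 (adjusted p = 0.092 without PT-ND replicate 3), Mrps12 (adjusted p = 0.071 without PT-D replicate 3) and Mrps16 (adjusted p = 0.078 without PT-D replicate 3). The length and GC correction removed the call of Rpl35a (-0.94, adjusted p = 0.25), Rpl17 (-0.82, adjusted p = 0.045), Rpl38 (-0.45, adjusted p = 0.25), Rps28 (-0.32, adjusted p = 0.40) and Mrps12 (-0.63, adjusted p = 0.079).

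These groups are of short transcripts, and the interaction followed transcript length over the whole transcriptome. The median transcript was 1101 nucleotides for the OXPHOS list, 1073.5 for cytosolic and 1856.5 for mitochondrial ribosomal proteins, against 2591 over all genes tested. Over protein-coding genes with a mean of at least 50, the median interaction went from -0.83 in the shortest of 10 equal bins of transcript length, up to 1439 nucleotides, to 0.51 in the longest, from 7203 nucleotides. In the shortest bin 239 of 1164 genes were DEGs. Lower DEGs had a median length of 1444 and higher DEGs of 4846.5 nucleotides. The level of the shortest bin relative to the longest differed between libraries, with log2 differences of -0.46, -0.67 and -0.90 in PT-D, -0.14, 0.28 and 0.64 in PT-ND, -0.10, 0.06, 0.21 and 1.11 in T-D and 0.04, 0.22, -0.27 and -0.12 in T-ND.

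With per-library offsets for transcript length and GC content, an alternative chosen after the data were seen, 328 genes were DEGs (177 higher, 151 lower), and 250 of them were among the 993. The medians of the OXPHOS, cytosolic and mitochondrial ribosomal lists were then -0.33, -0.32 and -0.45, with 1, 2 and 2 lower DEGs. The NF-kB and Notch medians, -1.12 and 0.86, and the endothelial median of 0.80 moved less. Where the length trend came from was not tested. The paper reports RNA integrity that varied between samples but did not differ between groups, and it was not compared with the trend here.

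**Figure D5:**
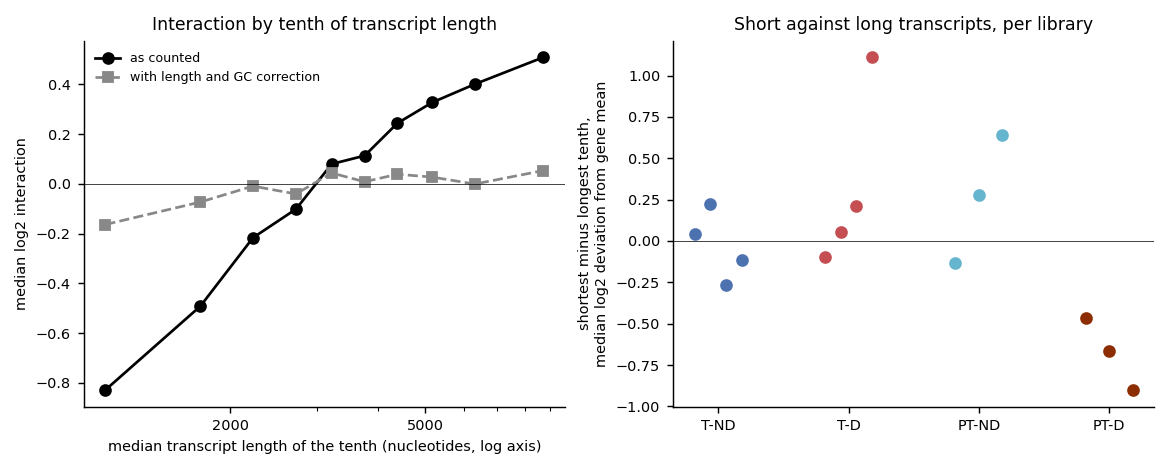
Left, median log2 interaction in 10 equal bins of protein-coding genes by transcript length (log axis), as counted and with the length and GC correction. Right, the median log2 level of the shortest bin minus that of the longest in each library, which was lowest in the 3 PT-D libraries, at -0.46 to -0.90, and highest in T-D replicate 4, at 1.11.

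Proximal tubule genes of transport and metabolism had a median of -0.40 (-0.27 without PT-D replicate 1, -0.45 without PT-ND replicate 1). Of the 36 members, 3 were lower DEGs, beside 2.46% over all genes, and 31 lay below 0. Slc7a7, which exports basic amino acids from the tubule cell, had an interaction of -1.17 (SE 0.26, adjusted p = 0.026), and Khk, the kinase that starts fructose breakdown, of -1.05 (SE 0.25, adjusted p = 0.030). Slc7a9, the cystine transporter of the brush border, was at -0.93 (SE 0.19, adjusted p = 0.022). The third DEG was Slc6a19, a transporter of neutral amino acids, at -1.19 (SE 0.34, adjusted p = 0.049), named after its values were seen. None of the 36 was a DEG with the length and GC correction, where the median was -0.31. Not all 14 fits with a library left out kept Slc7a7 (adjusted p = 0.080 without PT-D replicate 3) and Khk (adjusted p = 0.087 without PT-ND replicate 3). After the length and GC correction the thresholds were missed by Slc7a7 (-0.86, adjusted p = 0.053) and Khk (-0.58, adjusted p = 0.12).

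Tubular injury genes did not move together, with a median of 0.14 over 22 members (-0.07 without T-ND replicate 3). Havcr1, which encodes the injury marker KIM-1, had 2638, 2475, 1304 and 57.0 normalized counts in T-ND, 81.5, 102, 39.6 and 202 in T-D, 116, 82.6 and 121 in PT-ND and 97.6, 1599 and 1312 in PT-D. The untreated term mice held the highest values, 1 library in T-ND and 1 in PT-D lay near the level of T-D and PT-ND, and the interaction was 7.18 (SE 1.37, adjusted p = 0.019). Vcam1, an adhesion molecule also made by injured tubules, was at -1.51 (SE 0.40, adjusted p = 0.039) and Ccl2 is the third DEG of the list. Leaving out 1 library ended the call for Vcam1 (adjusted p = 0.11 without PT-D replicate 3) and Havcr1 (adjusted p = 0.060 without PT-ND replicate 3). Correcting for length and GC content ended the call for Vcam1 (-1.60, adjusted p = 0.052).

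Of the thick ascending limb and distal tubule list none of 24 members was a DEG, with the smallest p for Cldn10 at -1.51 (SE 0.44, adjusted p = 0.052) and a median of -0.01 (-0.41 without PT-D replicate 1). In the collecting duct list, with a median of -0.02 over 20, 2 members were higher DEGs, beside 1.98% over all genes. These were Gata2, a transcription factor of principal cells, at 1.33 (SE 0.34, adjusted p = 0.037) and Foxi1, which specifies intercalated cells, at 1.19 (SE 0.32, adjusted p = 0.041). Of 28 regulators of kidney development, Emx2, which the ureteric bud needs, was the DEG at 1.09 (SE 0.29, adjusted p = 0.041), and Pax8, a transcription factor of nephron cells, was at -0.87 (SE 0.20, adjusted p = 0.030). The call was lost in some fits with a library left out for Gata2 (adjusted p = 0.090 without PT-ND replicate 3), Foxi1 (adjusted p = 0.095 without PT-ND replicate 2) and Emx2 (adjusted p = 0.11 without PT-D replicate 3). Corrected for length and GC content, Emx2 (1.12, adjusted p = 0.051) did not pass.

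Of 19 genes of the unfolded protein and heat shock list 2 were higher DEGs, beside 1.98% over all genes, and 6 members lay below 0. The DEGs were Hspa5 and Hsp90b1, both chaperones of the endoplasmic reticulum. Hspa5, which encodes BiP, had 9050, 15798, 8695 and 6391 normalized counts in T-ND, 9689, 9512, 8205 and 6562 in T-D, 6929, 6601 and 8216 in PT-ND and 15412, 15240 and 16117 in PT-D, with an interaction of 1.34 (SE 0.34, adjusted p = 0.035). T-ND replicate 2 alone of the other libraries reached the PT-D level. Hsp90b1 was at 1.11 (SE 0.31, adjusted p = 0.047), and the list had a median of 0.46 (0.20 without T-ND replicate 2). Among clock genes, which cycle through the day, Cry1 was at 1.61 (SE 0.40, adjusted p = 0.035) and Ciart at -1.65 (SE 0.47, adjusted p = 0.049). Of the immediate early genes, Klf4, a zinc finger factor also induced in endothelium, was a DEG at 1.54 (SE 0.33, adjusted p = 0.024) and Jund was at -0.92 (SE 0.23, adjusted p = 0.036), with a median of -0.33 over 22 members. That median was -0.93 without PT-D replicate 1, -0.78 without T-ND replicate 3, -0.11 without PT-ND replicate 1 and -0.89 in the libraries without the suffix. Not all 14 fits with a library left out kept Cry1 (adjusted p = 0.098 without PT-ND replicate 3), Ciart (adjusted p = 0.13 without PT-D replicate 3), Klf4 (adjusted p = 0.066 without PT-ND replicate 3), Hspa5 (adjusted p = 0.090 without PT-D replicate 3) and Hsp90b1 (adjusted p = 0.12 without PT-D replicate 3). The length and GC correction removed the call of Ciart (-1.35, adjusted p = 0.16), Hspa5 (1.04, adjusted p = 0.089) and Hsp90b1 (1.09, adjusted p = 0.069).

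Some responses to STZ were of like size in both birth groups by their medians. The p53 targets, a family of genes of DNA damage and growth arrest, had median STZ effects of 0.71 in term and 0.88 in preterm mice and a median interaction of -0.07 over 31. Dcxr, a carbonyl reductase, was a lower DEG at -1.38 (SE 0.23, adjusted p = 0.011) and Zmat3, a p53-induced RNA-binding protein, a higher DEG at 1.00 (SE 0.23, adjusted p = 0.030). They were the only DEGs of the 31, beside 4.45% DEGs over all genes. Cell cycle genes had medians of 1.13 and 1.03 and a median interaction of -0.25 over 30 (-0.47 without T-ND replicate 3), with no DEG and the smallest p for Birc5 at -1.21 (SE 0.44, adjusted p = 0.10). An interaction that misses the threshold does not show equal effects, and for Birc5 its standard error leaves a wide range. Leaving out 1 library ended the call for Zmat3 (adjusted p = 0.091 without PT-D replicate 3). After the length and GC correction the thresholds were missed by Dcxr (-0.67, adjusted p = 0.051) and Zmat3 (0.57, adjusted p = 0.11).

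Metabolic lists held few DEGs. In sterol and fatty acid synthesis Idi1, of the isoprenoid pathway, was at 1.11 (SE 0.29, adjusted p = 0.039), and 17 of 20 members lay above 0 with a median of 0.34, which was 0.05 with the length and GC correction and 0.18 without PT-D replicate 2. None of 22 genes of fatty acid oxidation and lipid uptake was a DEG, with Acot1 at -1.23 (SE 0.48, adjusted p = 0.13), and none of 20 genes of glucose metabolism and insulin signalling was, with Pfkfb3, which drives glycolysis, at -1.94 (SE 0.58, adjusted p = 0.056). Ftl1, the ferritin light chain, was the DEG of 24 NRF2, heme and iron genes at -1.52 (SE 0.37, adjusted p = 0.033), and -0.75 (adjusted p = 0.17) with the length and GC correction. Hmox1 of that list was at 3.77 (SE 1.30, adjusted p = 0.088), and at -0.49 (adjusted p = 0.70) in the libraries without the suffix alone. None of 13 renin-angiotensin genes was a DEG, with Agt, the precursor of angiotensin, at -0.87 (SE 0.43, adjusted p = 0.23). The call was lost in some fits with a library left out for Idi1 (adjusted p = 0.12 without PT-ND replicate 3) and Ftl1 (adjusted p = 0.091 without PT-ND replicate 3). Correcting for length and GC content ended the call for Idi1 (1.06, adjusted p = 0.065) and Ftl1 (-0.75, adjusted p = 0.17).

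Non-coding genes with the smallest p differed in pattern. The RNA 4931408D14Rik (chromosome 19, 37232068 to 37241537) had 221, 203, 107 and 164 normalized counts in T-ND, 34.0, 41.4, 47.2 and 33.5 in T-D, 45.9, 65.6 and 53.1 in PT-ND and 114, 166 and 216 in PT-D, so that T-ND and PT-D lay above the other groups, with an interaction of 3.73 (SE 0.42, adjusted p = 0.00099). Gm21399 was high in PT-D alone, at 489, 472 and 629 against 13.6 to 42.5 in the other 11 libraries, with an interaction of 4.40 (SE 0.52, adjusted p = 0.0014). Gm43305 was likewise high in PT-D, at 860, 302 and 246, with 4.48 (SE 0.74, adjusted p = 0.010).

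Of the lower non-coding genes, Gm50357 was at -2.91 (SE 0.47, adjusted p = 0.0093) and 2010001A14Rik at -1.27 (SE 0.26, adjusted p = 0.023). Rn18s-rs5, a copy related to the 18S ribosomal RNA without a poly-A tail, had 103539 to 231977 normalized counts in T-ND, 145282 to 679530 in T-D, 156589 to 288346 in PT-ND and 36838 to 47338 in PT-D, with an interaction of -3.31 (SE 0.63, adjusted p = 0.019). Its highest library was T-D replicate 4, which also had the highest level of short transcripts. Not all 14 fits with a library left out kept Rn18s-rs5 (adjusted p = 0.062 without PT-D replicate 3) and 2010001A14Rik (adjusted p = 0.065 without PT-D replicate 3). Corrected for length and GC content, 2010001A14Rik (-0.48, adjusted p = 0.35) did not pass.

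Of the 32 genes that the study's text names and that were tested, 6 were interaction DEGs, beside 4.45% of all genes tested. Mmp9, Havcr1, Cx3cr1 and Flt4 were higher, Bcl2a1d, an anti-apoptotic gene of myeloid cells with close paralogs, was lower at -1.70 (SE 0.44, adjusted p = 0.037), and Ndufa13 of complex I was lower at -1.23 (SE 0.33, adjusted p = 0.041). The other 26 ranged from -2.01 for Apoc3 to 3.77 for Hmox1, with 17 above 0 and adjusted p-values from 0.058 to 0.96. These genes were chosen by the study on the same libraries, so their direction is no independent evidence. Leaving out 1 library ended the call for Bcl2a1d (adjusted p = 0.095 without PT-D replicate 3) and Ndufa13 (adjusted p = 0.13 without PT-ND replicate 3). The length and GC correction removed the call of Bcl2a1d (-0.94, adjusted p = 0.12) and Ndufa13 (-0.81, adjusted p = 0.14).

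Lists of tissue that a kidney sample can carry along gave no DEG. The smallest p was found for Lep in the adipocyte list (adjusted p = 0.13), a gene at 0 in 9 libraries with PT-ND among them, so that no fold is given, for Upk3a in the urothelium list at -2.30 (SE 0.92, adjusted p = 0.13), for Itga2b in the blood cell list at -0.79 (SE 0.29, adjusted p = 0.11) and for Mc2r in the adrenal cortex list at -1.05 (SE 0.98, adjusted p = 0.55). The adrenal list summed to 52.0 to 116 normalized counts in any library. The blood cell sums spanned 600 to 10678 in T-ND, 1676 to 20270 in T-D, 448 to 2635 in PT-ND and 2362 to 5539 in PT-D. Of 9 male-biased kidney genes none was a DEG, and the smallest p was that of Cyp4a12a at 1.40 (SE 0.44, adjusted p = 0.065).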

How the data were processed

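Kidney RNA of 14 mice was sequenced after poly-A selection without strand information. The authors aligned the reads with STAR to GRCm39, per the labels, and deposited raw read counts per gene. The column of counts without regard to strand was used here, without multimapping (9.07% to 14.9% of reads) and ambiguous reads and the summary rows. Totals were 16697246 to 28673176 counts per library. Of 56980 gene IDs, 56236 matched GENCODE M39, without the version number.

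Genes with a total count above 10 were fitted over the 4 groups with edgeR 4.0.16 (TMM, quasi-likelihood, R 4.3.3), with Benjamini-Hochberg adjustment over all genes tested. A DEG had an adjusted p under 0.05 and a log2 value beyond 1. Normalized counts are TMM-scaled counts at the mean library size. Log2 values are given with standard errors (SE). P-values test differences of group means against the spread between samples within groups, estimated over the 4 groups together. Litter was not in the fit.

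The named genes were the 12 protein-coding DEGs per direction with the smallest p and a mean of at least 50, up to 3 non-coding DEGs per direction, up to 4 members per gene list with an adjusted p under 0.05 or else those with the smallest p, and the DEGs among genes the study names. A single gene picked by the rule on lists is left out and not reported here. The genes and the 38 lists were chosen with earlier results of these data known.

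Alternatives were DESeq2 1.42.0, other scaling and filters, a replicate block, the suffix as a term and leaving out each library. The length and GC correction and the fit of the libraries without the suffix were added after seeing the data. The fits were tested on simulated data.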

Additional observations from a re-analysis of the deposited data

Results flagged for a closer look

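The STZ effect differed between preterm and term mice for 993 genes by edgeR's test of the interaction. The named genes among them, 82 in all, are given here with their log2 interaction. The STZ effect was higher in preterm mice for Havcr1 (7.18), Cx3cr1 (4.77), Gm43305 (4.48), Itih4 (4.44), Gm21399 (4.40), Lama3 (3.82), 4931408D14Rik (3.73), Mmp9 (3.70), Exoc3l2 (3.43) and Trim12c (2.73). It was also higher for Jag2 (2.44), Arhgef15 (2.40), Csf3r (2.32), Fgd5 (2.24), Egfl7 (2.16), Sox17 (2.15), Hdac7 (2.03), Lfng (2.01), Flt4 (1.94) and Ifi44 (1.91). Smaller positive values were those of Fhod1 (1.85), Kdr (1.83), Fzd7 (1.65), Cry1 (1.61), B3galnt2 (1.55), Klf4 (1.54), Pdgfrb (1.51), Hsf2 (1.45), Atf7ip (1.39) and Hspa5 (1.34). The same sign was found for Gata2 (1.33), Rb1cc1 (1.26), Jag1 (1.23), Foxi1 (1.19), Maml1 (1.19), Idi1 (1.11), Hsp90b1 (1.11), Emx2 (1.09) and Zmat3 (1.00).

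The STZ effect was lower in preterm mice for Tnip3 (-5.72), Il6 (-4.42), Cxcl2 (-3.76), Ch25h (-3.36), Rn18s-rs5 (-3.31), Prr7 (-3.21), Catspere2 (-3.21), Cxcl1 (-3.14), Ccl2 (-2.95) and Gm50357 (-2.91). It was also lower for Tnf (-2.84), Crym (-2.75), Cebpd (-2.63), Tnfaip3 (-2.46), Socs3 (-2.44), Socs1 (-2.31), Nfkbia (-1.94), Jdp2 (-1.76), Nfkbid (-1.75) and Bcl2a1d (-1.70). Negative values closer to 0 were those of Ciart (-1.65), Ube2s (-1.64), Rpl35a (-1.63), Ftl1 (-1.52), Vcam1 (-1.51), Atp5mg (-1.49), Rsph3b (-1.46), Mrps12 (-1.43), Ndufb8 (-1.41) and Dcxr (-1.38). A negative interaction was found as well for Mrps16 (-1.37), Rpl38 (-1.31), Rpl17 (-1.30), Fgfrl1 (-1.28), 2010001A14Rik (-1.27), Ndufa13 (-1.23), Rps28 (-1.22), Ndufs7 (-1.17), Slc7a7 (-1.17) and Ndufv3 (-1.15). The last of the negative values were those of Mrpl2 (-1.06), Khk (-1.05) and Mrpl28 (-1.03).

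A single library stood apart from the other 3 of its group in 12 of 206 tests of a group of 4 (Dixon's test), where chance flags about 1 in 20 groups. In T-ND these were replicate 1 for Hsf2 (327 normalized counts against 276 to 284 in the others), replicate 3 for Nfkbia (2555 against 1276 to 1415), Cxcl1 (1238 against 189 to 338), Flt4 (340 against 222 to 236) and Rsph3b (316 against 442 to 468), and replicate 4 for Ccl2 (877 against 686 to 713) and Zmat3 (314 against 352 to 356). In T-D they were replicate 1 for Lep (3.40 against 0 in the others), replicate 2 for Cx3cr1 (10.97 against 2.57 to 3.40), Csf3r (93.8 against 45.0 to 48.7) and mt-Nd1 (302780 against 403893 to 414711), and replicate 4 for Cldn10 (5103 against 2274 to 2658). Groups of 3 were not tested.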

How the results depend on the processing

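The number of interaction DEGs, 993 by edgeR, was 1648 by DESeq2, 328 with the correction for transcript length and GC content and 10 in the 9 libraries without the name suffix alone, where fewer libraries were fitted. It lay between 981 and 1188 with other scaling (RLE, upper quartile), a robust dispersion or another filter, but 1289 with no filter and 779 with the suffix as a term. The causes were not tested. With a library left out it lay between 76 and 1246. By DESeq2 there were 319 DEGs of STZ in term mice, 1319 of STZ in preterm mice, 147 of preterm birth without STZ and 745 of preterm birth with STZ, and the correction gave 171 of the last. Their ranges with a library left out were 8 to 344, 240 to 1112, 4 to 46 and 23 to 581. Upper quartile scaling moved the share of higher calls from 44.6% to 37.3%.

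No pairing of the samples by replicate number was seen, which so few libraries cannot exclude. The deviations of same-numbered libraries from their group means had a median correlation of -0.11 over 19 pairs, and 2 were over 0.1. For different-numbered libraries the median was 0.01 over 54 pairs, and 16 were over 0.1. With the replicate block there were 563 interaction DEGs (165 with the length and GC correction), 28 and 33 DEGs of STZ in term mice and of preterm birth with STZ, and 2 of preterm birth without STZ.

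Of the 82 named DEGs, 32 kept their call in each fit with a library left out, 43 with the length and GC correction and 4 in the libraries without the suffix. Hmox1, no DEG at 3.77, turned to -0.49 (adjusted p = 0.70) in the libraries without the suffix, the single change of sign among the named genes. Medians near 0, as for the p53, lymphocyte and collecting duct lists, changed sign with single libraries left out, and so did that of the antigen presentation list, from -0.43 to 0.08 without T-D replicate 4. For genes of a few counts, such as Lep and Ly6g, depth also limits what can be seen.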
